A study of Mus musculus with 105 samples.

Results

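The genes described here encode the enzymes and scaffold proteins that take messenger RNA apart. They are 41 of the 22322 genes in the count table and were chosen by name, with earlier results of these data known: 10 subunits of the CCR4-NOT deadenylase, the deadenylases PAN2-PAN3 and PARN (3 genes), 8 decapping genes, 7 LSM proteins, the 5′-to-3′ exonucleases Xrn1 and Xrn2, and 11 genes of the RNA exosome. Every one of the 41 had enough counts to be tested. Their messages were followed in primary CD4+ T cells from spleen and lymph nodes of 6-week-old female C57BL/6J mice, purified by negative selection. Activated groups had been exposed to anti-CD3/CD28 magnetic beads and Resting groups had not. Of the 35 groups, each of 3 libraries, 21 are activated and 14 resting. They were untreated or received a transcription inhibitor, Triptolide at 25 µM or, in activated cells alone, DRB at 65 µM. Some received a translation inhibitor, Cycloheximide (CHX) at 100 µg/ml or Harringtonine at 2 µg/ml, by itself or together with a transcription inhibitor, and cells were taken at 0, 1 or 3 h. The replicates are labelled 2, 3 and 4 and called biological. Nothing ties a number to a mouse, so the p values measure the spread between these libraries.

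Most messenger RNAs are destroyed from the tail inwards. PAN2-PAN3 and then CCR4-NOT shorten the poly(A) tail, the LSM1-7 ring binds what is left of it, DCP2 with its activators removes the 5′ cap, and XRN1 digests the body of the message from the 5′ end. The exosome, a barrel of EXOSC subunits to which the nucleases DIS3, DIS3L and EXOSC10 attach, digests RNA from the 3′ end in cytoplasm and nucleus. XRN2 is the nuclear counterpart of XRN1. In T cells this machinery keeps cytokine and other inducible messages short-lived.

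The libraries held between 6300 and 6479221 exon counts (median 2135827). The replicate 3 library of resting cells after 1 h of triptolide held 6300, that of untreated activated cells at 0 h held 141028, and all others held at least 551975. Levels are given as CPM, the share of a library's exon counts scaled by TMM factors. A change is a log2 difference ± SE between groups of 3 libraries, relative to the typical mRNA. A change per spike-in is scaled on the ERCC RNAs that were added to the RNA of equal cell numbers. A gene was called at an adjusted p under 0.05 in edgeR's quasi-likelihood test, adjusted by Benjamini-Hochberg over 10741 genes. Overlap of libraries is given mostly for genes named for their small p and was not counted over all genes. It describes the values and adds no support to the test. In these bulk samples, fewer cells of a type and less RNA per cell cannot be told apart. The 3 activation markers Il2ra, Cd69 and Myc summed to 2006 to 3706 CPM in activated and 184.5 to 290.8 CPM in resting 0 h libraries, and the T cell markers Cd3d, Cd3e, Cd3g and Cd4 to 525.9 to 707 and 859 to 1087 CPM. The 4 B cell markers summed to at most 11.9 CPM, the 5 myeloid markers to at most 7.9 CPM, the 2 CD8 markers to at most 11.6 CPM and the 2 natural killer markers to at most 6.12 CPM. Of these, Ncr1 was at 0 in all 6 libraries and Csf1r at 0 in the 3 resting ones.

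The members differed widely in level. Per kilobase of annotated exon, the median over the 35 groups was highest for Xrn2 at 108 CPM per kb, followed by Ddx6, a helicase that represses translation and promotes decapping, at 66.4, and Lsm4 at 56.2. Cnot6 and Cnot6l, paralogous CCR4-type catalytic subunits, stood at 40.4 and 25.8 CPM per kb, and the CAF1-type paralogs Cnot8 and Cnot7 at 16.9 and 14.1. Dcp2, the decapping enzyme, stood at 11.8 and Xrn1 at 3.54 CPM per kb. Within the exosome, Exosc10, Exosc4, Exosc3 and Exosc2 lay between 20.97 and 25.4 CPM per kb and the other 7 members between 2.96 and 7.90. The CCR4-NOT scaffold Cnot1 and its partner Cnot2 varied little, with the highest group mean 1.644 and 1.498 times the lowest. Exosc10, the nuclear exosome nuclease, varied 10.3 times, from 21.3 CPM in resting cells after 3 h of triptolide to 219 CPM in activated cells after 3 h of harringtonine. The plot of log2 changes by gene and comparison shows the members side by side.

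**Figure D1:**
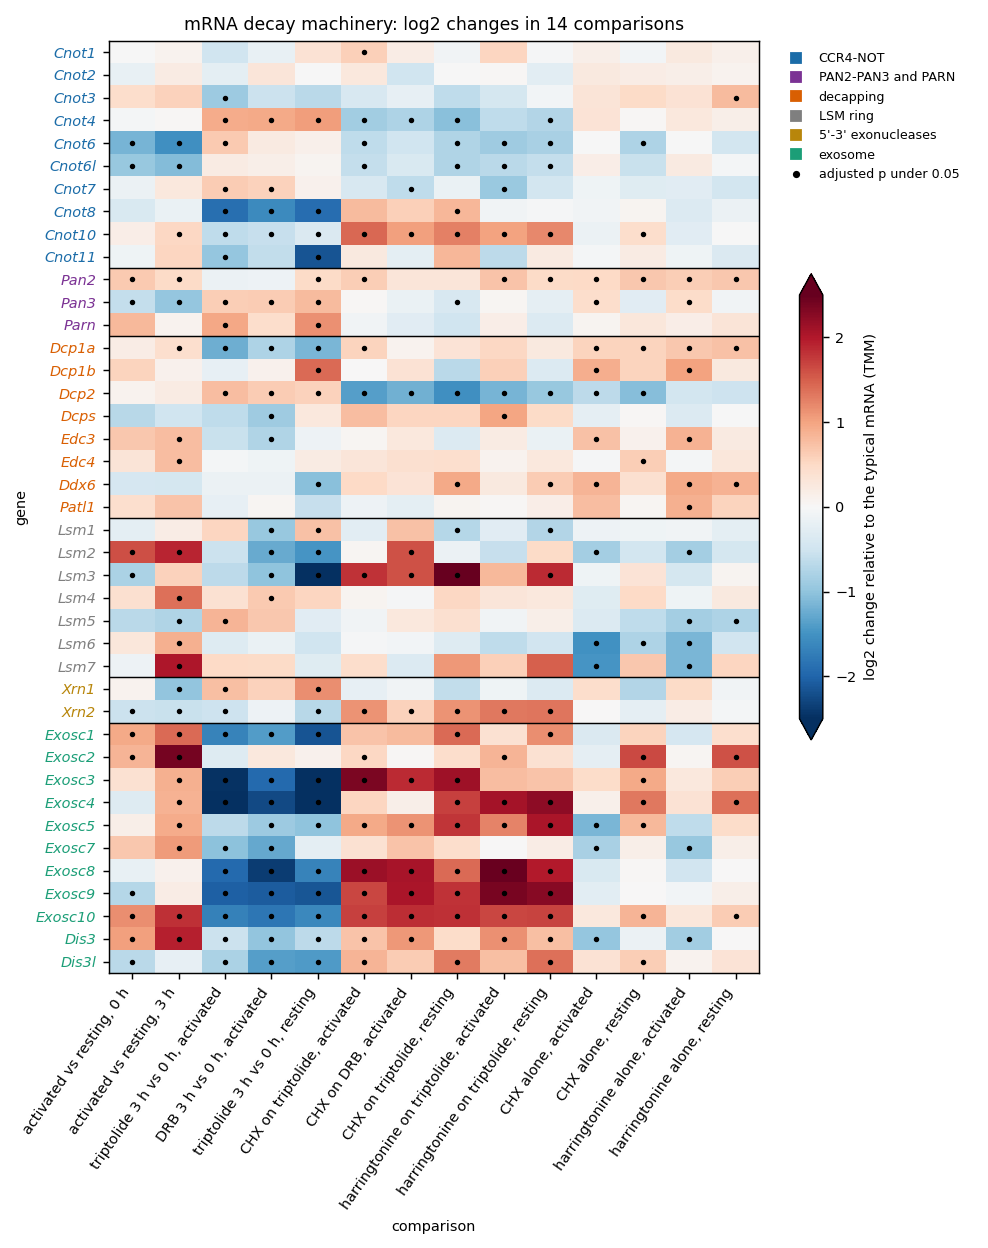
Log2 change relative to the typical mRNA (colour, TMM scaling) for each of the 41 members (rows, coloured by role) in the comparisons of the text (columns); dots mark an adjusted p under 0.05. Most exosome rows at the bottom are blue in the 3 transcription inhibitor columns, with 9, 10 and 9 of 11 called lower. Most are red where a translation inhibitor was added to a transcription inhibitor. With CHX alone in activated cells, Dis3 and Exosc5 are blue.

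Whether activation had already changed the decay machinery before any inhibitor was read from untreated cells at 0 h. Of the 41 members, 6 were higher and 7 lower in activated than in resting cells, against 26.7% of all genes called in either direction. The median change was 0.08, and −0.01 over all genes. Among them, 4 exosome genes were higher and 2 lower. Exosc10 (chromosome 4, 148558429 to 148582401, GRCm38, plus strand) stood at 179, 153 and 119 CPM in activated replicates 2, 3 and 4 and at 72.7, 70.2 and 59.4 CPM in resting ones, so the groups did not overlap. Its log2 change was 1.16 ± 0.19 (adjusted p = 7.63e-07). Dis3, the processive exosome nuclease (chromosome 14, 99075206 to 99099770, minus strand), stood at 107, 42.8 and 84.2 CPM against 49.7, 41.4 and 38.0 CPM, a change of 1.03 ± 0.22 (adjusted p = 0.000148). The activated value of 42.8 CPM came from the library with 141028 counts and fell within the resting range. The cap-structure subunit Exosc1 rose by 0.94 ± 0.28 and Exosc2 by 0.85 ± 0.20, whereas the barrel subunit Exosc9 fell by 0.71 ± 0.28 and the cytoplasmic nuclease Dis3l by 0.68 ± 0.25. Lsm2, shared by the cytoplasmic and nuclear LSM rings, stood at 17.98, 18.3 and 16.2 CPM against 5.88, 6.51 and 4.62 CPM, with no overlap (1.61 ± 0.32, adjusted p = 5.52e-05), and Lsm3 fell by 0.79 ± 0.28.

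Both CCR4-type deadenylase messages were lower. Cnot6 (chromosome 11, 49671503 to 49712723, minus strand) stood at 235, 318 and 249 CPM in activated and at 558, 593 and 608 CPM in resting cells at 0 h (−1.17 ± 0.25, adjusted p = 0.000201). Cnot6l stood at 247, 269 and 283 CPM against 511, 497 and 520.4 CPM (−0.94 ± 0.23, adjusted p = 0.00123), and neither gene's groups overlapped. Pan3, which recruits the PAN2 nuclease to the tail, fell by 0.59 ± 0.16 while Pan2 rose by 0.65 ± 0.16. Xrn2 fell by 0.54 ± 0.18. The remaining catalytic subunits were not called. Their changes were −0.15 ± 0.22 for Cnot7, −0.38 ± 0.28 for Cnot8, 0.82 ± 0.35 for Parn, 0.08 ± 0.22 for Dcp2 and 0.09 ± 0.32 for Xrn1. The 8 decapping genes did not pass the test, with changes from −0.69 ± 0.31 (Dcps) to 0.68 ± 0.28 (Edc3).

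Per spike-in, 4 members were higher (Exosc10, Dis3, Exosc2 and Lsm2) and Cnot6 was lower, against 14.2% of all genes called; Cnot6l was at −0.73, Pan3 at −0.37 and Xrn2 at −0.35, none of them called. The split between rises and falls depended on the scaling: RLE factors gave 8 higher and 4 lower, and DESeq2 7 and 3. For all genes it went from 1491 higher and 1382 lower to 1826 and 1024 with RLE factors and 1709 and 947 with DESeq2. Leaving out replicate 2 or replicate 4 left 7 members called relative to the typical mRNA, and 2 and 0 per spike-in. Among all genes 670 were then higher and 417 lower without replicate 2, and 915 and 586 without replicate 4. Per spike-in these were 443 and 30, and 369 and 68, in place of 1147 and 382. The calls of Exosc10, Lsm2, Dis3, Cnot6 and Cnot6l held in each of the 11 settings run for this comparison. That of Exosc2 held in 10 and those of Exosc1, Pan2 and Pan3 in 8, whereas the falls of Exosc9 and Xrn2 held in 4, that of Lsm3 in 3 and that of Dis3l in 2.

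**Figure D2:**
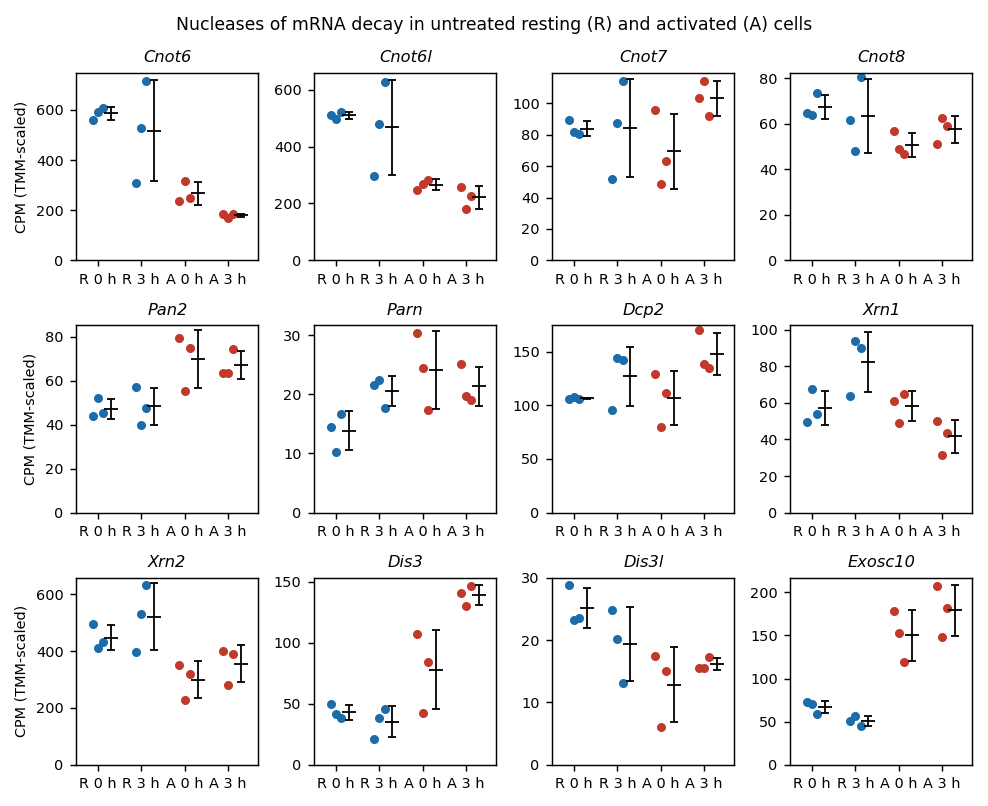
CPM (TMM-scaled, linear axis from 0) of the 12 catalytic genes in untreated resting (blue, R) and activated (red, A) cells at 0 and 3 h; each point is 1 library and the bar beside it is the mean ± SD of 3. Cnot6 and Cnot6l sit lower in activated cells, and Exosc10 and, at 3 h, Dis3 sit above every resting library.

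Intron counts, which come mostly from unspliced RNA, were compared in the same 6 libraries. In activated cells 5 members were higher and 2 lower, against 13.5% of 10750 genes called. The 5 were Exosc1 (1.21 ± 0.31), Lsm4 (1.19 ± 0.40), Dis3 (1.12 ± 0.31), Exosc10 (1.01 ± 0.29) and Exosc7 (0.94 ± 0.31). The 2 were Cnot6 (−1.25 ± 0.29, adjusted p = 0.00116) and Cnot6l (−0.88 ± 0.25, adjusted p = 0.00972). Exosc10 had 660, 7 and 191 intron counts in the activated libraries and 63, 107 and 168 in the resting ones. The 7 counts are those of the shallow library, so activated intron levels rest largely on replicates 2 and 4. Without replicate 2 no member was called, and without replicate 4 only 2 were. Among all genes the intron calls went from 852 higher and 601 lower to 284 and 139, and 745 and 318, in these runs. The share of the members' gene counts that lay in introns was 54.4% ± 5.98 in activated and 50.2% ± 6.25 in resting cells (SD, n = 3; exact permutation test, two-sided, p = 0.4, with 0.1 the smallest p that 3 against 3 libraries allow). Without replicate 2 the difference turned from 4.19 to −1.93 percentage points. Over all genes the share was 49.0% ± 6.43 in activated and 46.2% ± 4.89 in resting cells (SD, n = 3, not tested).

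The promoters of 33 of the 41 members matched the RefSeq promoter table (GRCm38.p6) by symbol. The 250 bases upstream of the start are printed for 3 genes that part on activation, Dis3 and Exosc5 among those higher in activated cells at 3 h and Cnot6 among those lower, 5′ to 3′ on the gene's own strand, at chr14:99099771-99100020 (minus), chr7:25658903-25659152 (plus) and chr11:49712723-49712972 (minus). Capitals mark a match on either strand to CCGGAAG, a core of ETS factor sites, or to CACGTG, the E-box bound by MYC and MAX.
Dis3: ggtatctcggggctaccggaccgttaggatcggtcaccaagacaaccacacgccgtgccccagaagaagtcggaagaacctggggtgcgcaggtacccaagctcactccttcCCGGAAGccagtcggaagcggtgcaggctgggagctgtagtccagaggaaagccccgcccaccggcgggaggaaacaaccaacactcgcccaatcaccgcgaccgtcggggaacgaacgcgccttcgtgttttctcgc
Exosc5: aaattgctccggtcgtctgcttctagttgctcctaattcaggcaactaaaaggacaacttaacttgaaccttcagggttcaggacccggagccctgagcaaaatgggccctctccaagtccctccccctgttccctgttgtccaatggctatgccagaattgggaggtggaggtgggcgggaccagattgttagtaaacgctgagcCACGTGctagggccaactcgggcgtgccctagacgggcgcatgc
Cnot6: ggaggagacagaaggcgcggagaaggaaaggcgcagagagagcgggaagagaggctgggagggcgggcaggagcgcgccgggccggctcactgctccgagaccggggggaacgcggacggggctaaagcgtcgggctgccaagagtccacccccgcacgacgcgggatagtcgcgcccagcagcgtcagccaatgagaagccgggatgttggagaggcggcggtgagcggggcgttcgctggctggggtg
The 7-base ETS core was found in 8 of the 33 (Cnot6l, Cnot10, Cnot11, Dcp1a, Dcp1b, Lsm5, Exosc10 and Dis3) and in 7.83% of all genes with a promoter entry. The E-box was found in 2 of the 33 (Cnot4 and Exosc5) and in 6.86% of all genes, and the palindromic NRF1 motif in 0 of the 33 and 0.877% of all genes. The printed Cnot6 window holds none of these letters. Of the 15 members with a promoter entry that were higher at 3 h, 4 held the ETS core and 1 the E-box. Cnot6l and Lsm5, which hold the ETS core, were lower at 3 h. Whether either motif goes with a change on activation was not tested.

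In untreated cells at 3 h the comparison gave more calls. In activated against resting cells at 3 h, 17 members were higher and 6 lower, against 53.8% of all genes called; 26.3% of all genes were called higher. The median change was 0.42 over the members, 0.92 over the 11 exosome genes and −0.04 over all genes. Of the 11 exosome genes, 8 were higher. Exosc2, an RNA-binding cap subunit (chromosome 2, 31670715 to 31681349, plus strand), stood at 103, 98.8 and 99.4 CPM in activated and at 22.2, 17.1 and 18.6 CPM in resting libraries, a change of 2.39 ± 0.20 (adjusted p = 2.05e-17). Exosc10 stood at 207, 149 and 182 CPM against 51.0, 56.2 and 44.6 CPM (1.83 ± 0.18, adjusted p = 2.36e-14). Dis3 stood at 141, 131 and 146 CPM against 21.5, 38.6 and 45.9 CPM (1.94 ± 0.21, adjusted p = 7.29e-13). These 3 genes had the smallest p among the members, and in each of them every activated library lay above every resting one. The other exosome genes called were Exosc1, Exosc3, Exosc4, Exosc5 and Exosc7, at 0.87 to 1.42, while Exosc8, Exosc9 and Dis3l were at 0.10 ± 0.33, 0.18 ± 0.25 and −0.21 ± 0.24 and were not called.

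The LSM ring had 4 of 7 genes higher: Lsm7 by 2.02 ± 0.50, Lsm2 by 1.91 ± 0.29, Lsm4 by 1.38 ± 0.27 and Lsm6 by 0.89 ± 0.28, with Lsm5 lower by 0.76 ± 0.30. Among decapping genes, the DCP2 activators Dcp1a (0.42 ± 0.18), Edc3 (0.78 ± 0.27) and Edc4 (0.78 ± 0.18) were higher and Dcp2 itself was at 0.21 ± 0.21. Among deadenylase genes, Cnot6 (−1.53 ± 0.25), Cnot6l (−1.08 ± 0.23) and Pan3 (−0.97 ± 0.15) were lower, and Cnot10 (0.51 ± 0.14) and Pan2 (0.48 ± 0.16) were higher. Both 5′ exonuclease genes were lower, with changes of −0.98 ± 0.31 for Xrn1 and −0.55 ± 0.18 for Xrn2. Per spike-in the median of all genes was 0.60, 28 members were higher and 1, Cnot6, was lower (50.7% of all genes called), and Cnot6l, Pan3, Xrn1 and Xrn2 were at −0.38, −0.30, −0.28 and 0.14, none of them called. Without replicate 4, 12 members were called relative to the typical mRNA and 15 per spike-in. All genes then gave 2103 higher and 2036 lower in place of 2820 and 2958. Per spike-in they gave 2524 and 687 in place of 4358 and 1089.

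From 0 to 3 h within untreated activated cells, 8 members rose and Pan3 fell (−0.44 ± 0.16), against 13.6% of all genes called. The risers were Lsm3, Lsm4, Lsm7, Exosc1, Exosc2, Exosc5, Exosc7 and Dis3. Lsm4 went from 40.5, 36.7 and 44.4 CPM to 66.6, 109.6 and 77.2 CPM (1.01 ± 0.28, adjusted p = 0.00875). Exosc2 went from 76.0, 67.3 and 45.0 CPM to 103, 98.8 and 99.4 CPM (0.69 ± 0.20, adjusted p = 0.0105), and Dis3 from 107, 42.8 and 84.2 CPM to 141, 131 and 146 CPM (0.67 ± 0.21, adjusted p = 0.0206). These 3 genes had the smallest p among the members, and the 2 times did not overlap for any of them. This count was fragile. It was 3 without the 2 shallowest libraries or without the filter on low counts, 2 without replicate 3 and 0 without replicate 4, and RLE factors gave 10 higher and 0 lower and DESeq2 9 and 0. It was 5 with the compared libraries fitted alone. Of all genes 650 were called higher and 812 lower. Without the 2 shallowest libraries these were 497 and 732, and 410 and 764 without the filter. Without replicate 3 they were 478 and 836, and 34 and 190 without replicate 4. RLE factors gave 936 and 671, DESeq2 879 and 632 and the compared libraries alone 414 and 588. The adjusted p of Dis3 was 0.0959 without the 2 shallowest libraries, 0.118 without replicate 3 and 0.31 without replicate 4, that of Lsm4 was 0.0858 without replicate 3 and 0.138 without replicate 4, and that of Exosc2 was 0.537 without replicate 4. In untreated resting cells 1 member changed over the same time, against 6.39% of all genes called: Exosc2 fell from 45.4, 23.2 and 34.8 CPM to 22.2, 17.1 and 18.6 CPM (−0.85 ± 0.21, adjusted p = 0.00536), and was at an adjusted p of 0.138 without replicate 2 and 0.135 without replicate 4.

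The stability of the members' own messages was read from cells in which transcription had been blocked. Per spike-in, 40 members fell over 3 h of triptolide in activated cells, 40 over 3 h of DRB and 38 over 3 h of triptolide in resting cells, where 77.7%, 78.2% and 75.5% of all genes were called lower. Expressed as the share of the 0 h level left, the median over all genes was 31.15% in activated cells under triptolide, 34.4% under DRB and 29.3% in resting cells. The median of the 11 exosome messages was 9.92%, 13.2% and 9.98% in the same order. That of the 10 CCR4-NOT messages was 25.4%, 34.5% and 29.96%, and that of PAN2-PAN3 and PARN 50.9%, 48.4% and 51.4%. In activated cells after 3 h of triptolide, replicate 3 held 14.7 exon counts per spike-in count, beside 8.44 and 6.90 in replicates 2 and 4. Without this library the median log2 change of all genes per spike-in went from −1.68 to −1.96, so the shares left in that course depend on it.

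**Figure D3:**
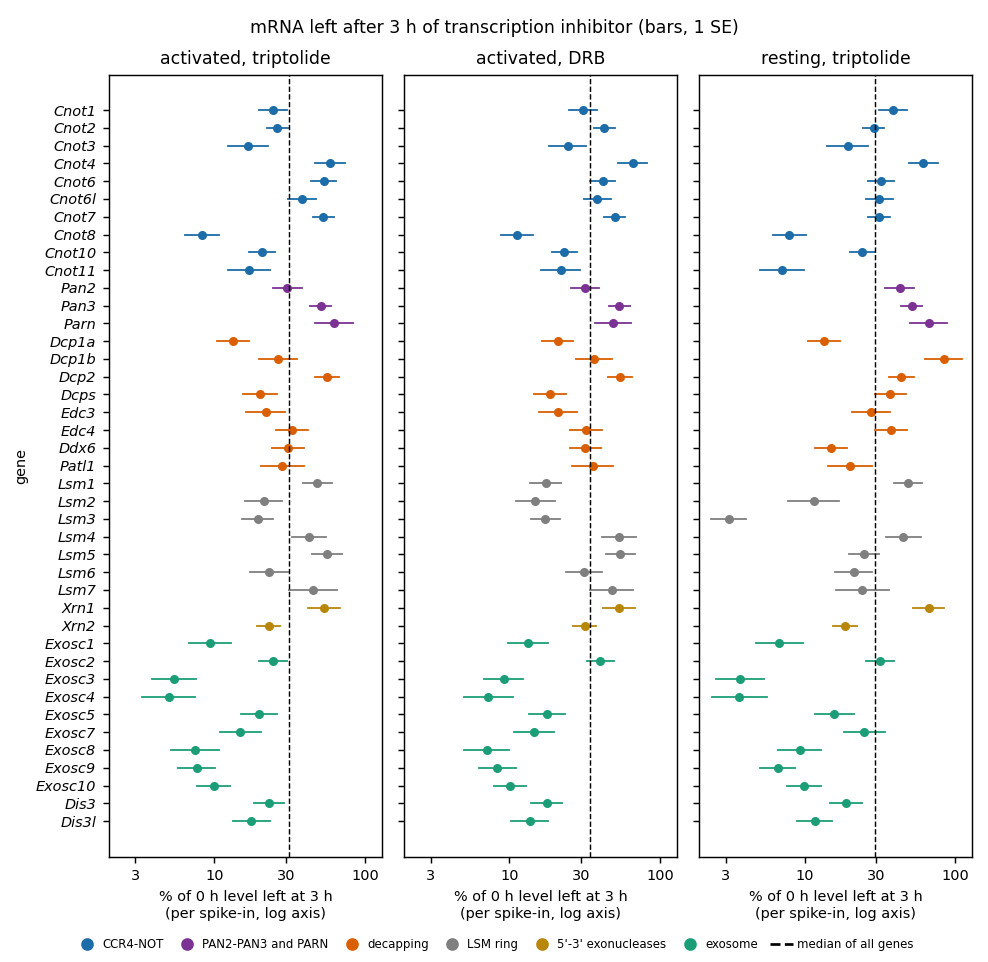
Percentage of the 0 h level, per spike-in, left after 3 h of transcription inhibitor (log axis) for each of the 41 members, coloured by role; bars are 1 SE of the fit and the dashed line is the median of all genes. Most exosome messages lie left of the line in the 3 panels, and Cnot4, Pan3, Dcp2 and Xrn1 lie right of it.

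Relative to the typical mRNA, 8 members were higher and 15 lower after triptolide in activated cells (47.6% of all genes called), 5 and 18 after DRB (39.8%) and 8 and 17 after triptolide in resting cells (56.8%). Of the 11 exosome genes, 9, 10 and 9 were lower, where 26.1%, 21.9% and 30.3% of all genes were called lower, and their median changes were −1.67, −1.40 and −1.61. The 3 inhibitor courses used different libraries throughout. In all 3, 11 members were lower (Cnot8, Cnot10, Dcp1a, Exosc1, Exosc3, Exosc4, Exosc8, Exosc9, Exosc10, Dis3 and Dis3l) and 3 higher (Cnot4, Pan3 and Dcp2). Among all genes 15.6% were lower and 11.3% higher in all 3. The call of Dcp2 held in 10 of 11 settings under triptolide in activated cells, 6 under DRB and 5 in resting cells. Those of Dis3 and Dis3l under triptolide in activated cells held in 7 and 6. RLE factors, under which the median of all genes was −0.26, −0.20 and −0.31 in the 3 courses, gave 3 higher and 23 lower, 3 and 18, and 5 and 20, and DESeq2 gave 3 and 22, 2 and 18, and 5 and 19. The number called fell to 11 without replicate 4 for triptolide in activated cells and to 13 for DRB, where it was also 13 with the compared libraries fitted alone. Without replicate 4 all genes gave 1356 higher and 2091 lower for triptolide, in place of 2310 and 2807. For DRB they gave 919 and 1419, and 1255 and 1583 with the compared libraries alone, in place of 1927 and 2348.

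Exosc10 was the member with the smallest p in both activated courses. In triptolide it stood at 151, 142 and 113 CPM at 0 h, 86.2, 79.6 and 67.5 CPM at 1 h and 43.1, 45.2 and 37.9 CPM at 3 h, so that each time lay below the one before without overlap (3 h against 0 h, −1.69 ± 0.20, adjusted p = 3.37e-11). In DRB it stood at 153, 104 and 122 CPM, then 77.4, 83.0 and 67.2 CPM, then 45.0, 29.1 and 31.7 CPM (−1.81 ± 0.20, adjusted p = 1.12e-11). In resting cells it went from 65.8, 60.5 and 64.1 CPM at 0 h to 28.2, 11.8 and 23.8 CPM at 3 h (−1.61 ± 0.22, adjusted p = 2.16e-09). The share left per spike-in was 9.92%, 10.1% and 9.98%. Exosc9, a barrel subunit (chromosome 3, 36552606 to 36565727, plus strand), went from 23.3, 28.0 and 19.5 CPM to 6.04, 6.33 and 4.06 CPM in DRB (−2.08 ± 0.36, adjusted p = 2.22e-06) and from 54.1, 29.1 and 38.7 CPM to 9.96, 6.90 and 10.7 CPM in resting cells (−2.13 ± 0.33, adjusted p = 6.04e-08). The 3 h and 0 h libraries did not overlap in either course.

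Among the exosome messages, Exosc4 and Exosc3 had the lowest shares left under triptolide, 4.97% and 5.41% in activated and 3.702% and 3.75% in resting cells. Under DRB the lowest were Exosc8 at 7.05% and Exosc4 at 7.24%, with Exosc3 at 9.18%. Exosc2 had the highest share in the 3 courses, 24.7%, 40.0% and 31.7%. Exosc3, Exosc4, Exosc5, Exosc8, Exosc9 and Dis3 are among 12 members whose gene overlaps another counted gene. The others are Cnot3, Cnot7, Dcp1a, Dcp1b, Edc3 and Edc4. Whether the counting used strand is not given in the sources used here, so reads of overlapping genes cannot be told apart there. With counts over coding sequence alone, Exosc9, Exosc10, Exosc3, Exosc4 and Exosc8 were still lower in the 3 courses.

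Outside the exosome, Cnot8 and Dcp1a were lower in the 3 courses. Cnot8, a CAF1-type deadenylase, went from 43.3, 63.7 and 45.9 CPM to 14.4, 13.9 and 12.9 CPM in triptolide (−1.89 ± 0.32, adjusted p = 1.34e-06) and from 48.7, 64.6 and 42.0 CPM to 13.2, 30.4 and 11.4 CPM in DRB (−1.59 ± 0.31, adjusted p = 2.61e-05), and its change in resting cells was −1.90 ± 0.32. Its paralog Cnot7 was higher relative to the typical mRNA in both activated courses (0.64 ± 0.21 and 0.57 ± 0.21) and at 0.11 ± 0.21 in resting cells. The call of Cnot7 held in 6 of 11 settings under triptolide and 5 of 11 under DRB, and that of Cnot8 in 11 of 11 in both. The shares left were 8.32% for Cnot8 and 52.9% for Cnot7 in activated cells under triptolide. Dcp1a, which holds DCP2 in its active form, went from 136, 90.3 and 140 CPM to 47.7, 45.2 and 61.2 CPM in triptolide (−1.23 ± 0.20, adjusted p = 3.3e-07), and was also lower in DRB (−0.77 ± 0.19) and in resting cells (−1.14 ± 0.20).

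The messages of the decapping enzyme and of XRN1 were among the more stable ones. Dcp2 went from 124, 91.7 and 103 CPM at 0 h of triptolide to 207, 162 and 177 CPM at 3 h in activated cells (0.78 ± 0.21, adjusted p = 0.00164), which is a fall to 56.0% per spike-in. Xrn1 was left at 53.8% (0.75 ± 0.31), 53.6% (0.57 ± 0.31, not called) and 66.5% (1.16 ± 0.31). Its call held in 6 of 11 settings under triptolide in activated cells and in 10 in resting cells. Cnot4, a ubiquitin ligase of the CCR4-NOT complex, was left at 58.6%, 65.7% and 61.3%, and Pan3 at 50.9%, 53.6% and 51.4%, both called higher relative to the typical mRNA in the 3 courses. Lsm1, the subunit that makes the LSM ring cytoplasmic, was at 0.54 ± 0.26 in activated cells (not called), −0.95 ± 0.30 in DRB and 0.73 ± 0.26 in resting cells, and the resting value turned to −0.66 with coding-sequence counts. Intron counts as a share of the members' counts were 33.8% ± 3.35 after 3 h and 42.7% ± 6.63 at 0 h of triptolide in activated cells, 40.2% ± 3.80 and 48.2% ± 5.76 in DRB, and 42.6% ± 4.28 and 47.5% ± 3.89 in resting cells (SD, n = 3; exact permutation tests, two-sided, p = 0.1, 0.2 and 0.3). These tests did not use the replicate numbers. The 3 h library had the lower share in each of the 3 same-numbered pairs of each course: in replicates 2, 3 and 4 the share went from 50.15%, 37.4% and 40.7% to 36.8%, 34.4% and 30.2% in triptolide, from 52.9%, 41.7% and 49.9% to 43.7%, 36.2% and 40.8% in DRB, and from 44.8%, 51.96% and 45.7% to 38.3%, 46.9% and 42.55% in resting cells. The resting difference of −4.91 percentage points was −18.5 as a median over members. Over all genes the share was lower at 3 h as well, from 38.7% ± 8.30 to 30.1% ± 5.375 with triptolide in activated cells. It went from 42.6% ± 5.59 to 36.0% ± 4.52 in DRB and from 42.8% ± 3.89 to 37% ± 1.13 in resting cells (SD, n = 3, not tested).

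Whether a member's message decayed at another rate in activated than in resting cells was tested as the difference of the 2 triptolide changes. Of the 41 members 2 were called, against 6.47% of all genes. Lsm3, a subunit of both LSM rings (chromosome 6, 91515928 to 91522625, plus strand), went from 10.3, 18.3 and 19.4 CPM to 10.3, 8.70 and 10.5 CPM in activated cells and from 42.8, 22.9 and 31.7 CPM to 3.32, 2.96 and 3.84 CPM in resting cells. The difference was 2.56 ± 0.55 (adjusted p = 0.00125), and the share left per spike-in was 19.4% in activated and 3.13% in resting cells. The resting 3 h libraries held 787949, 1354047 and 1950808 exon counts, so their Lsm3 values rest on few reads. Dcp1b, the second DCP1 gene, went from 33.0, 22.2 and 35.6 CPM to 17.8, 24.4 and 36.2 CPM in activated cells, where it did not pass the test (−0.21 ± 0.31), and from 10.9, 22.2 and 14.02 CPM to 43.2, 56.1 and 29.2 CPM in resting cells, where it was higher relative to the typical mRNA (1.42 ± 0.30). The difference was −1.63 ± 0.43 (adjusted p = 0.0097) and was not called per spike-in (adjusted p = 0.136). The Dcp1b gene overlaps Cacna1c, another counted gene, and reads of the overlap cannot be told apart. The adjusted p of Lsm3 was 0.241 with coding-sequence counts, 0.0941 without replicate 2 and 0.0605 without replicate 4, and that of Dcp1b was 0.34 without replicate 2. Without replicate 4, 1 member was called. RLE factors and DESeq2 each gave 2 higher and 1 lower. All genes gave 437 higher and 258 lower, and 110 and 20 without replicate 4. They gave 452 and 238 with RLE factors and 389 and 198 with DESeq2. For the 11 exosome genes the difference ran from −0.79 ± 0.49 (Exosc7) to 0.61 ± 0.43 (Dis3l).

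Translation inhibitors were added to triptolide or DRB to ask which messages need translation in order to decay. CHX stops elongating ribosomes on the message and harringtonine stops ribosomes at the start codon, so that the rest of the message empties. With CHX added to triptolide for 3 h, 14 members were higher and 4 lower than with triptolide alone in activated cells (27.4% of all genes called), and 13 and 6 in resting cells (35.2%). With CHX added to DRB, 10 were higher and 3 lower (17.7%). With harringtonine added to triptolide, 11 and 4 were called in activated cells (24.7%) and 13 and 5 in resting cells (24%). The exosome supplied most of the rises: 8, 8 and 6 of its 11 genes were higher with CHX in that order, and 7 and 8 with harringtonine, where 15.8%, 18.8%, 10.5%, 14.8% and 14.6% of all genes were called higher. Its median changes were 0.85, 1.41, 1.09, 1.14 and 1.37, beside −0.08, −0.05, −0.10, −0.08 and −0.08 over all genes. These comparisons use the same 3 h libraries as the decay courses, so a message measured low there counts towards both a fall in one and a rise in the other, and the CHX and harringtonine comparisons share them too. The members' intron share in activated cells was 17.7% with CHX and 20.6% with harringtonine, beside 33.8% with triptolide alone. In resting cells it was 25.4% and 28.3%, beside 42.6%. Over all genes it was 21.9% and 23.9% beside 30.1%, and 27.9% and 31.5% beside 37% (means, n = 3, not tested).

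Exosc10 rose in each of the 5 comparisons. Exosc10 stood at 146, 112 and 149 CPM with triptolide and CHX in activated cells and at 120, 132 and 148 CPM with triptolide and harringtonine, beside 43.1, 45.2 and 37.9 CPM with triptolide alone and 151, 142 and 113 CPM at 0 h. Both additions lay above every triptolide library (1.70 ± 0.20, adjusted p = 6.79e-11, and 1.67 ± 0.20, adjusted p = 9.95e-11). Per spike-in Exosc10 changed by −3.33 over 3 h of triptolide, and the rises of 2.36 with CHX and 2.08 with harringtonine were smaller than that fall. With DRB and CHX it stood at 138, 93.9 and 152 CPM against 45.0, 29.1 and 31.7 CPM (1.85 ± 0.20, adjusted p = 3.01e-11). In resting cells it stood at 83.7, 67.9 and 67.6 CPM with CHX and 78.1, 59.7 and 61.9 CPM with harringtonine, against 28.2, 11.8 and 23.8 CPM (1.82 ± 0.22, adjusted p = 2.9e-10, and 1.68 ± 0.22, adjusted p = 4.52e-09). Exosc9 stood at 32.0, 40.3 and 29.1 CPM with triptolide and harringtonine in activated cells against 6.89, 8.70 and 4.83 CPM (2.37 ± 0.35, adjusted p = 8.23e-08). Exosc8 rose in all 5 comparisons, by 1.41 to 2.48. With CHX on triptolide in activated cells, the call of Dis3l held in 4 of 11 settings and that of Exosc2 in 6. Those of the other exosome genes called there held in 9 to 11.

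Members outside the exosome rose too. Cnot10, a subunit of the CCR4-NOT module built with CNOT11, stood at 120, 137 and 146 CPM with triptolide and CHX in activated cells against 51.1, 50.5 and 47.5 CPM (1.44 ± 0.15, adjusted p = 7.46e-12), at 78.4, 109 and 113 CPM with DRB and CHX against 54.9, 54.4 and 37.4 CPM (1.03 ± 0.16, adjusted p = 6.57e-07), and at 110, 128 and 128 CPM in resting cells against 61.4, 44.3 and 49.1 CPM (1.26 ± 0.16, adjusted p = 4.93e-10). With harringtonine in resting cells it stood at 104.9, 123 and 126 CPM (1.21 ± 0.16, adjusted p = 2.16e-09). No library with an added inhibitor overlapped those without. Xrn2 stood at 507, 716 and 518 CPM with triptolide and harringtonine in activated cells against 283, 195 and 215 CPM (1.32 ± 0.19, adjusted p = 1.99e-08), and at 547, 795 and 842 CPM in resting cells against 252, 273 and 334 CPM (1.34 ± 0.18, adjusted p = 1.66e-08). Xrn1 was not called in any of the 5 comparisons, at −0.61 ± 0.30 to −0.09 ± 0.32. Lsm3 rose in resting cells with CHX from 3.32, 2.96 and 3.84 CPM to 24.4, 25.6 and 28.3 CPM (2.91 ± 0.40, adjusted p = 1.91e-08). The lower values rest on few reads.

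**Figure D4:**
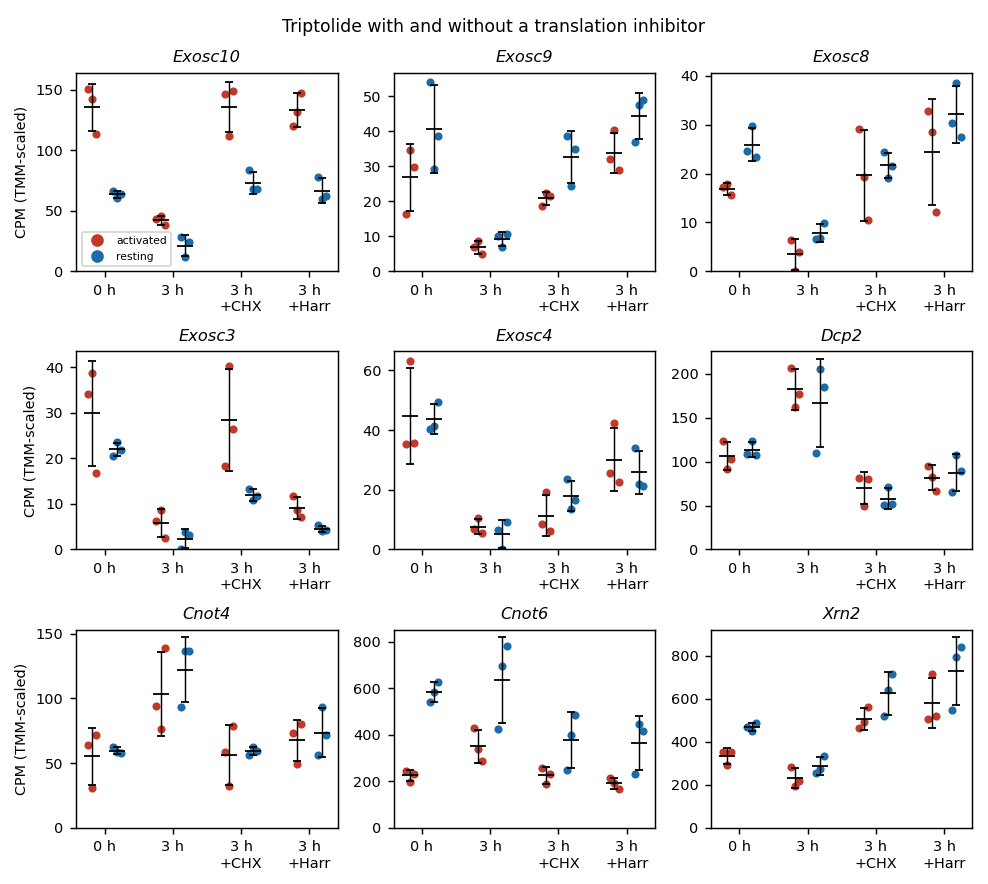
CPM (TMM-scaled, linear axis from 0) of 9 members at 0 h of triptolide, after 3 h, and after 3 h with cycloheximide (CHX) or harringtonine (Harr) added, in activated (red) and resting (blue) cells; points are libraries and bars the mean ± SD of 3. Exosc10, Exosc9 and Exosc8 drop at 3 h and stand higher with either addition, while Dcp2 and Cnot4 run the other way.

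The decapping enzyme fell when translation was blocked. Dcp2 stood at 81.3, 49.3 and 80.1 CPM with triptolide and CHX in activated cells against 207, 162 and 177 CPM with triptolide alone (−1.37 ± 0.22, adjusted p = 5.93e-07), and at 92.4, 60.1 and 71.3 CPM with DRB and CHX against 185, 149 and 192 CPM (−1.21 ± 0.22, adjusted p = 2.61e-05). In neither case did the groups overlap. The change was −1.53 ± 0.22 with CHX in resting cells and −1.16 ± 0.22 and −0.95 ± 0.22 with harringtonine in activated and resting cells. Per spike-in the changes of Dcp2 were −0.73 and −0.76 with CHX and harringtonine in activated cells, both called, and −0.53, −0.61 and −0.37 in the other 3 comparisons, not called. Cnot6 was lower in 4 of the 5 comparisons, all but CHX on DRB, with changes from −0.89 to −0.64, and Cnot6l in the same 4, from −0.75 to −0.59. Cnot4 was lower in 4, all but harringtonine in activated cells, with changes from −1.05 to −0.74. The call of Cnot4 with CHX on DRB held in 4 of 11 settings and that of Cnot6l with CHX on triptolide in activated cells in 5 of 11. Per spike-in, the changes of Cnot4, Cnot6 and Cnot6l lay between −0.54 and 0.32 and none was called. Lsm1 was lower in resting cells with CHX (−0.72 ± 0.26) and harringtonine (−0.74 ± 0.26), and these turned to 0.14 and 0.01 with coding-sequence counts.

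Per spike-in, the median of all genes rose with the additions by 0.62, 0.86 and 0.59 for CHX on triptolide in activated cells, on triptolide in resting cells and on DRB, and by 0.38 and 0.50 for harringtonine. Without replicate 3 of triptolide alone at 3 h, the activated values on triptolide were 0.90 for CHX and 0.65 for harringtonine. With all libraries, 23, 27 and 23 members were higher per spike-in with CHX (34.6%, 46% and 29.6% of all genes called higher) and 16 and 17 with harringtonine (21.5% and 26.8%). With a replicate block for each state, 20 members were called for CHX on DRB in place of 13. All genes gave 1623 higher and 1819 lower there, in place of 1126 and 770. RLE factors gave 10 higher and 1 lower there and 15 and 4 for CHX on triptolide in resting cells. For all genes they gave 1282 and 546, and 2259 and 1431. Leaving out replicate 4 left 8 members called for CHX on triptolide in activated cells, 7 for CHX on DRB and 8 for harringtonine in resting cells, and leaving out replicate 2 left 11 in the first. Among all genes, leaving out replicate 4 left 973 higher and 301 lower, 434 and 115, and 844 and 194 in that order. With all libraries they were 1697 and 1242, 1126 and 770, and 1563 and 1018. Leaving out replicate 2 left 1362 and 1002 in the first. The call of Dcp2 with CHX on DRB then stood at an adjusted p of 0.0519 without replicate 4. With the compared libraries fitted alone, 8 members were called for CHX on DRB. All genes then gave 409 higher and 30 lower.

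The 2 translation inhibitors were set against each other on a triptolide background, a comparison chosen after the values were seen. In activated cells 2 members were higher with CHX and 1 with harringtonine, against 4.88% of all genes called. Exosc3, a cap subunit of the exosome, stood at 18.2, 40.3 and 26.5 CPM with CHX and at 11.8, 8.59 and 7.09 CPM with harringtonine, a CHX minus harringtonine difference of 1.59 ± 0.37 (adjusted p = 0.0028). Exosc4, a barrel subunit, stood at 8.46, 19.2 and 6.22 CPM with CHX and at 25.5, 42.3 and 22.7 CPM with harringtonine (−1.54 ± 0.45, adjusted p = 0.0266). Lsm3 stood at 28.4, 33.9 and 42.5 CPM with CHX and at 15.0, 18.5 and 19.9 CPM with harringtonine (0.98 ± 0.27, adjusted p = 0.017). None of the 3 pairs of groups overlapped. In cells given DRB in place of triptolide, Exosc3 averaged 32.4 ± 15.8 CPM with CHX and 10.9 ± 1.40 CPM with harringtonine, and Exosc4 10.7 ± 3.23 and 28.2 ± 6.21 CPM (SD, n = 3, not tested).

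In resting cells 1 member was called, against 2.17% of all genes: Lsm3 stood at 24.4, 25.6 and 28.3 CPM with CHX and at 11.3, 12.5 and 13.7 CPM with harringtonine (1.05 ± 0.28, adjusted p = 0.0263). Exosc3 was at 1.40 ± 0.44 (adjusted p = 0.079) and Exosc4 at −0.53 ± 0.42 (adjusted p = 0.739). The other 38 and 40 members gave no call at this depth, with differences in activated cells from −0.70 ± 0.27 (Exosc9) to 0.90 ± 0.36 (Cnot11). With the replicate block within each state, 8 and 4 members were called. All genes gave 749 higher and 466 lower in activated and 529 and 148 in resting cells. Without the block they gave 364 and 160, and 214 and 19. Without replicate 4 none was called in either state, and without replicate 2 the counts were 1 and 0. Among all genes 62 were higher and 15 lower, and 47 and 0, without replicate 4. Without replicate 2 these were 207 and 77, and 91 and 3. In activated cells the adjusted p of Exosc3 was 0.0653 without replicate 3 and 0.124 without replicate 4, that of Lsm3 0.0754 without replicate 2, and that of Exosc4 0.261 without replicate 2; Exosc4 was not called per spike-in (adjusted p = 0.196). That of Lsm3 in resting cells lay between 0.0649 and 0.45 without the filter on low counts, with the compared libraries alone, with coding-sequence counts or without any one replicate.

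**Figure D5:**
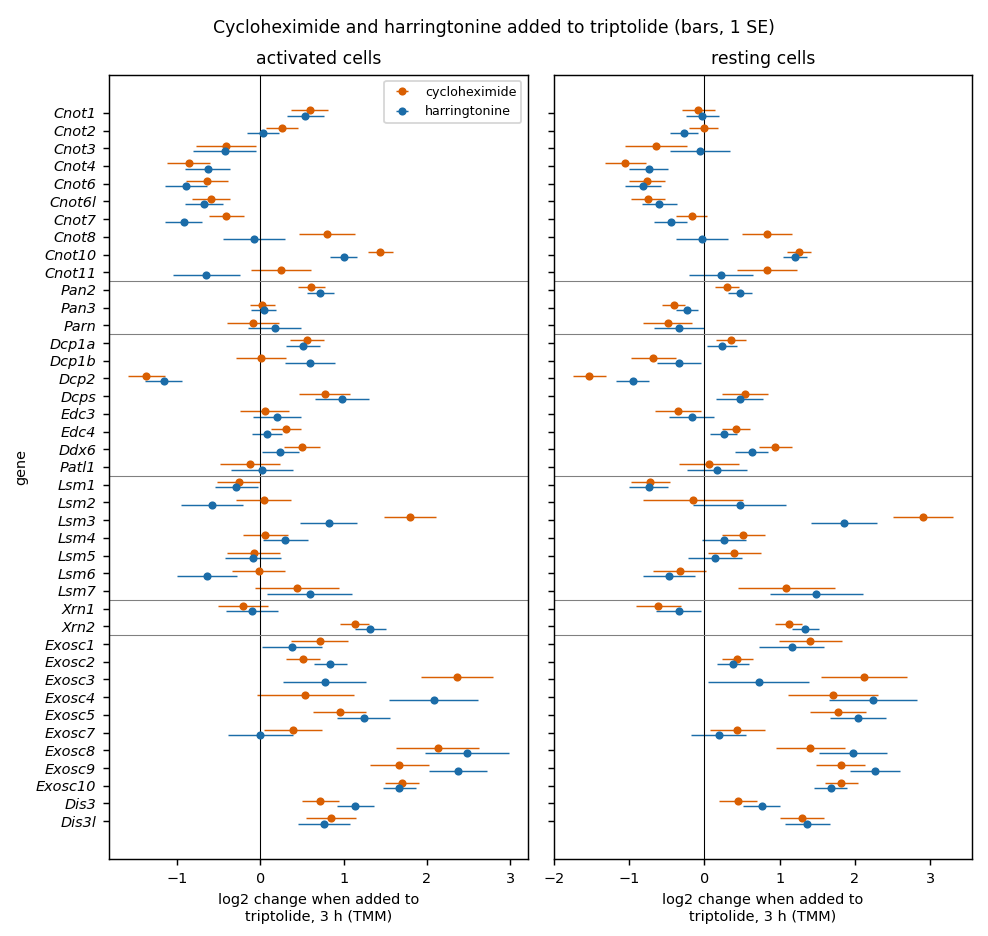
Log2 change relative to triptolide alone at 3 h (horizontal axis, TMM scaling) when cycloheximide (orange) or harringtonine (blue) was added, for each of the 41 members in activated (left) and resting (right) cells; points are estimates and bars 1 SE. Exosc3 and Exosc4 part in opposite directions in activated cells, with CHX estimates of 2.36 and 0.54 and harringtonine estimates of 0.77 and 2.08.

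Without a transcription inhibitor, 3 h of CHX left 6 members higher and 7 lower than in untreated activated cells (30% of all genes called) and 10 and 3 in resting cells (26.3%). Harringtonine gave 7 and 6 in activated cells (31.1%) and 7 and 1 in resting cells (20.5%). The CHX and harringtonine comparisons share their untreated 3 h libraries. The activation comparison at 3 h and the untreated courses over time use them too. In activated cells a message measured high there counts towards a rise in those and a fall here. Dis3, Lsm6 and Exosc5 had their highest group mean there. In resting cells a message measured low there counts towards a fall over time, a rise on activation and a rise here. Exosc2 was called in each. In activated cells the genes that rose were decapping and PAN2-PAN3 genes, and those that fell were LSM and exosome genes and, with CHX, Dcp2 (−0.65 ± 0.21). Ddx6 stood at 911, 634 and 800 CPM with harringtonine against 497, 352 and 377 CPM untreated (0.94 ± 0.22, adjusted p = 0.000412), and its change with CHX was 0.84 ± 0.22. Dcp1a, Dcp1b and Edc3 rose with both inhibitors, by 0.55 to 1.01, as did Pan2 (0.49 and 0.61) and Pan3 (0.44 and 0.45), and the DDX6-binding decapping activator Patl1 with harringtonine (0.88 ± 0.33). Dis3 fell from 141, 131 and 146 CPM to 74.4, 63.3 and 75.5 CPM with CHX (−0.97 ± 0.20, adjusted p = 8.56e-05) and to 83.6, 62.7 and 82.9 CPM with harringtonine (−0.86 ± 0.20, adjusted p = 0.000416). Lsm6 fell from 45.0, 24.6 and 38.6 CPM to 18.03, 11.6 and 8.46 CPM with CHX (−1.52 ± 0.28, adjusted p = 1.52e-05) and to 17.6, 16.5 and 15.3 CPM with harringtonine (−1.15 ± 0.28, adjusted p = 0.000697). Exosc5 fell from 37.9, 55.1 and 48.2 CPM to 23.5, 19.6 and 20.5 CPM with CHX (−1.14 ± 0.28, adjusted p = 0.00104), and treated and untreated libraries did not overlap for any of these 4 genes.

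In resting cells Exosc2 rose from 22.2, 17.1 and 18.6 CPM to 60.8, 58.7 and 62.1 CPM with CHX (1.66 ± 0.20, adjusted p = 1.33e-09) and to 61.5, 51.0 and 61.0 CPM with harringtonine (1.59 ± 0.20, adjusted p = 8.13e-09). Exosc10 rose from 51.0, 56.2 and 44.6 CPM to 97.5, 83.3 and 92.7 CPM with CHX (0.85 ± 0.18, adjusted p = 0.000175). Of the 11 exosome genes, 6 were higher with CHX and 3 with harringtonine, where 13.8% and 9.84% of all genes were called higher, and Dis3 was at −0.14 ± 0.21 and −0.00 ± 0.20, not called. Dcp2 fell from 95.4, 144 and 143 CPM to 46.3, 68.1 and 69.3 CPM with CHX (−1.06 ± 0.21, adjusted p = 7.57e-05), and was at −0.01 per spike-in. Pan2 rose from 57.1, 40.0 and 47.6 CPM to 78.2, 72.3 and 78.1 CPM with harringtonine (0.67 ± 0.15, adjusted p = 0.000809), and Ddx6 from 465, 574 and 612 CPM to 956, 1055 and 1009 CPM (0.87 ± 0.22, adjusted p = 0.00187). Treated and untreated libraries did not overlap for Exosc2, Exosc10, Dcp2, Pan2 or Ddx6. Whether these changes differ between activated and resting cells was not tested.

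Per spike-in, the median of all genes was 1.02 with CHX and 1.00 with harringtonine in resting cells, where 34 and 35 members were higher (61.1% and 60.1% of all genes called higher), and 0.47 and 0.35 in activated cells, where 12 and 7 were higher (25.2% and 20.4%). On that scale 1 member was lower with CHX in activated cells, Lsm6 (−1.03, adjusted p = 0.0296), and 0 with harringtonine, in place of the 7 and 6 relative to the typical mRNA. Dis3 was at −0.49 and −0.48, Exosc5 with CHX at −0.64 (adjusted p = 0.161) and Lsm6 with harringtonine at −0.78 (adjusted p = 0.114), none of them called. With the replicate block within each state, 21 members were called for CHX and 13 for harringtonine in resting cells in place of 13 and 8, and 18 in place of 7 per spike-in for harringtonine in activated cells. Among all genes the block gave 2297 higher and 2409 lower for CHX in resting cells, in place of 1483 and 1341. For harringtonine it gave 1877 and 2083 in place of 1057 and 1142. Per spike-in in activated cells it gave 3291 and 816 in place of 2195 and 390. Without replicate 4 the counts relative to the typical mRNA were 3 and 5 in activated cells and 2 and 1 in resting cells for CHX and harringtonine, and without replicate 2 the count for CHX in activated cells was 7. All genes without replicate 4 gave 939 higher and 609 lower, and 907 and 630, in activated cells. In resting cells they gave 549 and 310, and 302 and 191. For CHX in activated cells they gave 1375 and 976 without replicate 2. Without replicate 4 the adjusted p was 0.12 for Exosc5, 0.0504 for Exosc10, 0.0561 for Lsm6 with harringtonine, 0.0545 for Pan2 and 0.0521 for Ddx6 in resting cells. RLE factors and DESeq2 each gave 7 higher and 0 lower for harringtonine in resting cells. All genes gave 1469 and 774 with RLE factors and 1426 and 716 with DESeq2.

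Around the core machinery, 42 further genes of tail binding, tailing, decapping and exosome targeting were measured. On activation 6 of the 42 were higher and 6 lower at 0 h, and 16 and 10 at 3 h. Of all genes 26.7% and 53.8% were called in either direction. Relative to the typical mRNA, 10 were higher and 18 lower in activated cells under triptolide, 9 and 13 under DRB and 9 and 18 in resting cells, against 47.6%, 39.8% and 56.8% of all genes called. On activation Tut4, a terminal uridylyltransferase, fell by 1.34 ± 0.21 and Tnks1bp1, a CCR4-NOT partner, rose by 1.61 ± 0.32 at 0 h. Noct, nocturnin, and the poly(A) polymerase Tent4a were higher at 3 h, by 2.96 ± 0.30 and 2.24 ± 0.30. Under triptolide the message of Dis3l2, an exonuclease that works without the exosome, was higher relative to the typical mRNA in activated cells (1.92 ± 0.26; 0.26 per spike-in), and Lsm14b was lower (−2.09 ± 0.29). In resting cells Pnrc2, a decapping coactivator, and Wdr61, a subunit of the SKI complex that feeds the cytoplasmic exosome, were lower (−3.27 ± 0.29 and −3.19 ± 0.34). Toe1, a nuclear deadenylase, was lower in DRB (−2.01 ± 0.30). With CHX added to triptolide in activated cells, Pnrc2 rose by 2.13 ± 0.31 and Mtrex, the helicase of the nuclear exosome, by 1.87 ± 0.30. With harringtonine alone in activated cells Tut7 rose by 1.53 ± 0.19 and Wdr61 fell by 1.59 ± 0.22.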

How the data were processed

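The libraries are total RNA with ERCC spike-ins from equal numbers of CD4+ T cells. The deposited table holds counts per gene over exons, introns and coding sequence, made by the authors with TopHat2 2.0.13, Bowtie 1.1.1.0 and HTSeq on mm10, per the submitters' processing notes; the annotation and the strand setting are not given in the sources used here. The macrophages named in the series' text are not analysed here. Of 735 count columns, 315 were not used. Per library, 75.84% to 97.25% of the counted reads fell outside gene rows and stayed out of library sizes.

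The 35 groups come from the labels. Exon counts of all 105 libraries were fitted together in edgeR 4.0.16 (R 4.3.3, limma 3.58.1) with its filter on low counts, TMM factors, group means and the robust quasi-likelihood test, and p values were adjusted by Benjamini-Hochberg over 10741 genes. A second fit took offsets from the summed counts of the 92 ERCC RNAs. Intron counts were fitted the same way over 10750 genes. The alternatives were DESeq2 1.42.0, RLE factors, no filter, the compared libraries alone, a replicate block, coding-sequence counts, and leaving out each replicate or the 2 shallowest libraries. A further run left out replicate 3 of activated cells after 3 h of triptolide, for the comparisons that use that group. The scripts were tested on simulated data. Gene positions are from GENCODE on GRCm38, and figures were drawn with matplotlib 3.10.9.

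Replicate numbers were checked for pairing: deviations from the group means correlated at a mean of 0.325 for libraries of the same number and state (over 0.1 in 838 of 903 pairs) and at −0.0786 across states, and 105 of 105 libraries lay closest to their own number in their own state. The members and lists were chosen with earlier results of these data known. Named by rule were the members by role, per-library values for the 3 called members with the smallest p in each comparison, the catalytic subunits on activation, and the 2 related genes with the smallest p, of which a selection is printed.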

Additional observations from a re-analysis of the deposited data

Results flagged for a closer look

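For 2 members the change over 3 h of triptolide differed between activated and resting cells by a test of the difference itself. For Lsm3 the activated minus resting difference was 2.56 ± 0.55 (log2 ± SE, edgeR's quasi-likelihood test, Benjamini-Hochberg adjusted p = 0.00125). All 3 resting libraries at 3 h, 3.32, 2.96 and 3.84 CPM, lay below the 3 activated ones, 10.3, 8.70 and 10.5 CPM, and at 0 h the resting libraries were the higher ones. The resting 3 h values rest on few reads. For Dcp1b, whose gene overlaps the counted gene Cacna1c, the difference was −1.63 ± 0.43 (adjusted p = 0.0097). It was not called per spike-in (adjusted p = 0.136) or without replicate 2 (0.34). That of Lsm3 was not called with coding-sequence counts (adjusted p = 0.241), without replicate 2 (0.0941) or without replicate 4 (0.0605).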

How the results depend on the processing

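Of 253 calls of members, 101 held in each of the 11 alternative settings. Of 2841 values under an alternative, 2354 kept call and direction, 484 kept direction and lost the call, and 3 reversed. These values include the run without replicate 3 of activated cells after 3 h of triptolide. The reversed values are those of Lsm1 with coding-sequence counts: −0.66 for triptolide, 0.14 for CHX and 0.01 for harringtonine on triptolide, in resting cells. Leaving out replicate 4 lost the most calls, 132, beside 67 without replicate 2 and 61 without replicate 3; the replicate block lost 0. The causes were not tested.

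Calls over all genes moved with the settings too, as given above, so the counts below do not describe the members alone. Leaving out 1 replicate at a time gave these ranges of members called (per spike-in in parentheses). On activation the count was 7 to 10 at 0 h (0 to 7), 12 to 22 at 3 h (15 to 27) and 0 to 6 for introns. Over time it was 0 to 6 in activated (0 to 6) and 0 to 1 in resting cells (0 to 1). For the inhibitor courses it was 11 to 23 with triptolide in activated cells, 13 to 21 with DRB, and 1 to 3 for activated minus resting (0 to 1). For CHX it was 8 to 14 on triptolide in activated cells (8 to 30), 7 to 13 on DRB (11 to 22), and alone 3 to 13 in activated (1 to 13) and 2 to 11 in resting cells. For harringtonine it was 8 to 13 on triptolide in resting cells (9 to 18), 4 to 23 per spike-in in activated cells, and alone 5 to 10 in activated (0 to 9) and 1 to 7 in resting cells. For CHX minus harringtonine it was 0 to 2 in activated (0 to 3) and 0 to 1 in resting cells (0 to 2).

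With no filter, 7 members were called for activation at 0 h and 3 over time in activated cells. Without the 2 shallowest libraries the latter was 3 (1 per spike-in), and over time in resting cells 0 per spike-in. With the compared libraries alone the counts were 5 and 0 over time in activated and resting cells (0 per spike-in in resting), 13 for DRB, 8 for CHX on DRB (15), 1 and 0 for CHX minus harringtonine (2 and 0), and per spike-in 0 for activated minus resting, 10 for harringtonine on triptolide and 11 for it alone in activated cells. Coding-sequence counts gave 0 for CHX minus harringtonine in resting cells.

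With the replicate block within each state the counts were 6 over time in resting cells (3 per spike-in), 15 per spike-in in activated cells, 7 for activated minus resting (4), 8 per spike-in for activation at 0 h, 20 for CHX on DRB, 21 and 13 for CHX and harringtonine alone in resting cells, 18 per spike-in for harringtonine alone in activated cells, and 8 and 4 for CHX minus harringtonine (7 and 6); the block over both states gave 2 for the last in resting cells. Among all genes the block within each state gave 999 higher and 989 lower over time in resting cells, in place of 325 and 361. For activated minus resting it gave 924 and 837 in place of 437 and 258. The members' intron share, activated minus resting, ran from −1.93 to 8.30 points with 1 replicate left out, and for triptolide in resting cells was −18.5 points as a median over members. Libraries of 6300 and 141028 counts limit the precision of resting 1 h triptolide and activated 0 h levels.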
